A study of Mus musculus with 160 samples.

Results

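SoxF and ETS transcription factors that are known from endothelium were followed from hemogenic endothelium into blood cells in single-cell RNA-seq. The 10 genes were chosen by name: the SoxF genes Sox7, Sox17 and Sox18 and the ETS genes Ets1, Ets2, Erg, Fli1, Elk3, Etv2 and Etv6. All 10 were found among the 23420 gene rows of the table, and 9 of them had more than 30 of the 160 cells above 1 TPM (a length-scaled share of a cell's transcripts), the minimum used here for comparisons across genes. Etv2 did not pass that minimum and is described without a rank among the other genes.

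Mouse pluripotent stem cells of a C57BL/6 line carried, in all 4 groups, a doxycycline-inducible cassette for Runx1 and Hoxa9 joined by a p2a peptide, and the cells came from selected clones of that line. Doxycycline was given during differentiation and maturation, so no group was free of the induced factors. The 65 induced hemogenic endothelial cells (iHECs) had been sorted as CD31+CD41lowCD45-c-kit+CD201high, and the induced hematopoietic progenitor cells (iHPCs) had been matured on OP9-DL1, a stromal feeder that displays a Notch ligand. The 21 day-14 and 18 day-17 iHPCs, taken at maturation days 3 and 6, were CD45+ and negative for a panel of lineage antigens. The gate for the 56 iHPCs of day 21, which was maturation day 10, was Ter119-CD45+c-kit+CD127+. The sort gate changed together with the day between iHECs and day 14 and again between days 17 and 21. The move onto the feeder, with a change of medium, also fell between iHECs and day 14. Day and gate cannot be told apart at either step, nor can the culture at the first.

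SoxF proteins are high-mobility-group factors that take part in specifying arterial and lymphatic endothelium. ETS factors share a DNA-binding domain that recognises a GGAA core, and many endothelial enhancers hold such cores. Erg and Fli1 are close relatives that act in endothelium and in blood stem cells, whereas Etv2 acts briefly when endothelial and blood cells first form from mesoderm.

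The labels name no animal, culture or sort, so each group counted as 1 sample and no difference between groups was tested. Values are TPM per cell, shares of cells above 1 TPM with exact Clopper-Pearson 95% intervals that cover counting error only, and means ± SD between cells on the log2(TPM + 1) scale. The read depth of a cell is unknown from TPM. Cells had a median of 4926 genes above 1 TPM among iHECs, against 8200, 8101 and 6695.5 at days 14, 17 and 21, and 17 of the 65 iHECs had fewer than 4000 such genes. A gene listed at 0 may have been missed, since the housekeeping genes Hprt and Tbp were listed at 0 in 6 and 28 of the 160 cells.

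The labelled cell types carried their markers. All 7 endothelial markers, Cdh5 and Kdr among them, were above 1 TPM in at least 50% of iHECs, and all 5 blood markers were so in each iHPC group, while Cdh5 was listed at 0 in every iHPC. Ptprc, which encodes CD45, went against the gate in 5 cells: it was above 1 TPM in 1 iHEC, and at or below 1 TPM in 4 iHPCs, of which 2 were from day 14 and 1 each from days 17 and 21. The 2 day-14 cells held 972 and 698 TPM of Pou5f1, a pluripotency gene, with 2 of the 5 blood markers each, and the day-17 cell held 55.4 TPM of the endothelial and mesodermal receptor Kdr, also with 2 of the 5. The day-21 cell had 4 of the 5 blood markers. Leaving out these 5 cells changed many counts and means slightly, and values without them are given below for the genes most affected.

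All 3 SoxF genes were on in iHECs and were listed near or at 0 in almost every blood cell. Sox18 was the most frequent, above 1 TPM in 63 of 65 iHECs (96.9%, interval 89.3 to 99.6%), followed by Sox7 in 52 (80%, 68.2 to 88.9%) and Sox17 in 43 (66.2%, 53.4 to 77.4%). Sox18, a regulator of vascular and lymphatic development, ran from 0 to 2028 TPM with a median of 220 TPM. Sox7 ran from 0 to 584 TPM (median 68.9) and Sox17, a factor of arterial and hemogenic endothelium, from 0 to 867 TPM (median 52.7). Each gene thus spread, from cell to cell, between no detected transcript and a level high among iHECs.

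At day 14 none of the 21 iHPCs exceeded 1 TPM of any SoxF gene, which allows a share of up to 14.3% by a limit of 3 cells of the total and up to 16.1% by the exact interval, and the highest value of the 3 genes was 0.123 TPM, for Sox7. At day 17 Sox7 was listed at 0 in all 18 cells, Sox17 reached 1.23 TPM in 1 cell, and Sox18 reached 13.5 TPM in another. The Sox18 cell was the one with Kdr and without Ptprc, so that without it Sox18 was above 1 TPM in 0 of 17 cells. At day 21 the 3 genes were listed at 0 in all 56 cells, which allows a share of up to 5.36% by the limit of 3 cells and 6.38% by the exact interval. Apart from these 2 day-17 cells, no iHPC had a SoxF gene above 1 TPM, and the groups overlapped only through the iHECs in which a SoxF gene was at or near 0.

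**Figure D1:**
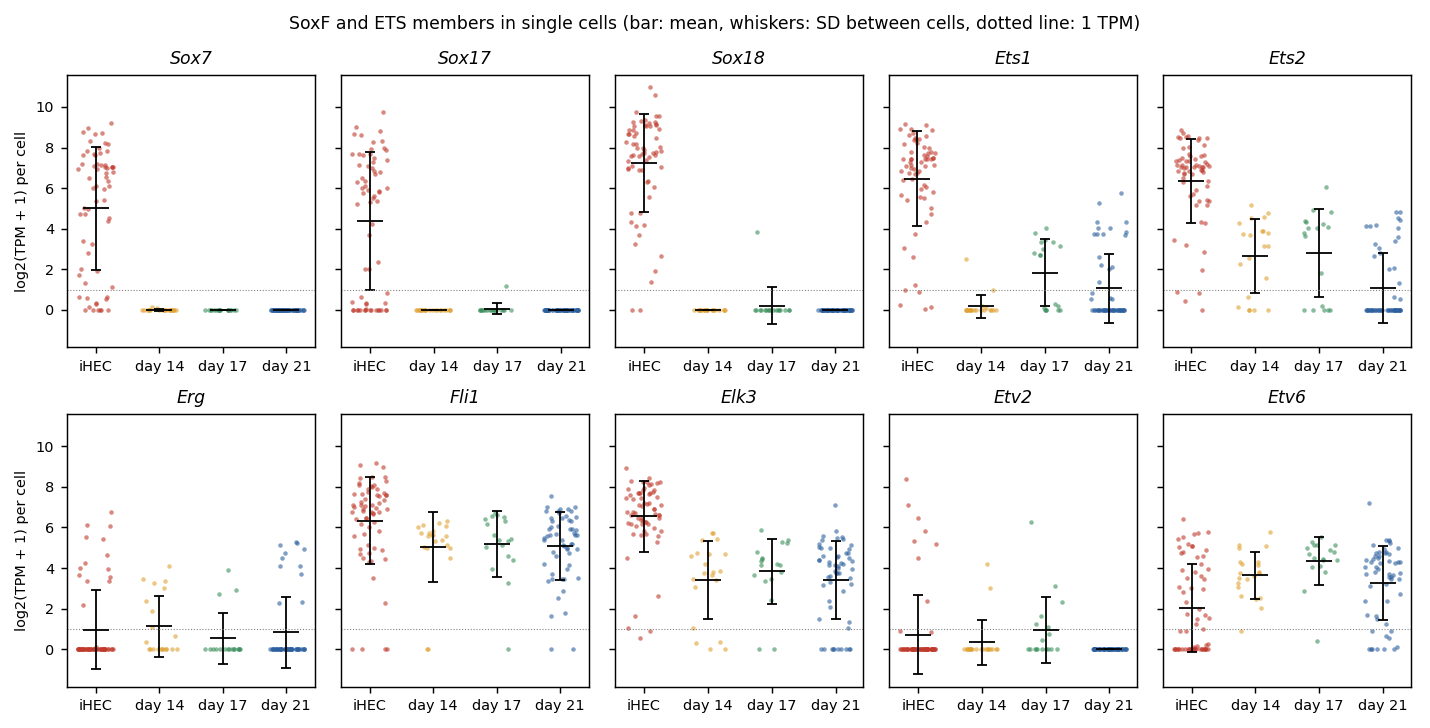
Level of each of the 10 genes in each cell, as log2(TPM + 1), in 65 iHECs and in the iHPCs of days 14, 17 and 21 (21, 18 and 56 cells). Points are cells, bars are means, whiskers are the SD between cells and the dotted line is 1 TPM; Sox7, Sox17 and Sox18 are high in iHECs and near 0 later, while Fli1 keeps a mean between 5.04 and 5.19 in the iHPC groups.

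From iHECs to day-14 iHPCs the mean of Sox18 moved by -7.23 on the log2(TPM + 1) scale, that of Sox7 by -4.99 and that of Sox17 by -4.38. Of the 9674 genes compared, 0.13% had a lower difference than Sox18, 0.78% a lower one than Sox7 and 1.12% a lower one than Sox17. A fall of at least 2 was found in 6 of the 9 members compared, namely the 3 SoxF genes, Ets1, Ets2 and Elk3, where 5.63% of all genes compared fell that far and 25.7% rose that far. The median difference over all genes was 0.93, so relative to it the falls were larger. Fli1 then also passed (-2.22), against a background of 10.9%. The 3 SoxF genes and Ets1 met the minimum for comparisons across genes only because of their iHECs. A gene that meets it in this way is likely to fall at this step, whereas the background holds all genes compared. The ranks and the count of 6 are therefore descriptions.

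**Figure D2:**
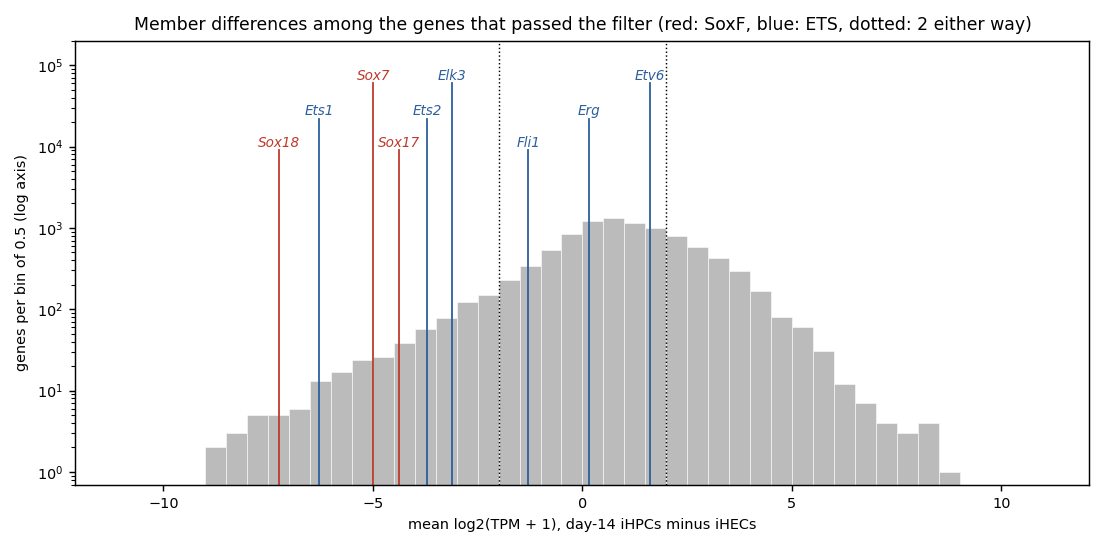
Difference of the mean log2(TPM + 1) between day-14 iHPCs and iHECs for the 9674 genes compared, in bins of 0.5 with a log axis for the number of genes. Vertical lines mark the SoxF (red) and ETS (blue) genes and dotted lines a difference of 2 either way; 6 members lie left of -2, Fli1 at -1.3, Erg at 0.16 and Etv6 at 1.61.

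Loss of detection was measured separately, by a rule added after the values were seen. Of the 4440 genes above 1 TPM in at least 50% of iHECs, 46 (1.04%) were above 1 TPM in no day-14 cell, and the 3 SoxF genes were among them. Sox7 was also among the 26 (0.586%) that were above 1 TPM in no iHPC of any day. By contrast, 3787 of the 4440 (85.3%) were above 1 TPM in at least 50% of cells of every iHPC group, a set that held Fli1, Elk3 and Etv6 and left out Ets1 and Ets2. Of the 8 members above 1 TPM in at least 50% of iHECs, 3 stayed on by this rule, a smaller share than among all such genes.

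Among the ETS genes, Ets1 fell furthest from iHECs to day 14 and was again seen in part of the later cells. Ets1, a factor of endothelial and lymphoid cells, was above 1 TPM in 60 of 65 iHECs (92.3%, 83.0 to 97.5%), with 0.018, 141 and 563 TPM as the lowest, median and highest values. At day 14 it was above 1 TPM in 1 of 21 cells, at 4.72 TPM, and the mean moved by -6.28. At day 17 it was above 1 TPM in 10 of 18 cells (55.6%, 30.8 to 78.5%), with a median of 5.56 and a highest value of 15.2 TPM, and without the cell against the gate in 9 of 17 (52.9%, 27.8 to 77.0%). At day 21 it was above 1 TPM in 16 of 56 cells (28.6%, 17.3 to 42.2%), with a median of 0 and a highest value of 52.9 TPM. The mean difference of 1.65 between days 14 and 17 was above that of 95.4% of the genes compared. It was short of 2, which 2.76% of the genes compared reached upward. Day-17 values were low, with 2 of 18 cells above 10 TPM. No member differed by 2 or more between days 14 and 17, where 0.62% of genes fell that far, or between days 17 and 21, where 0.755% rose that far.

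Ets2 fell with Ets1 at first but remained in most day-14 and day-17 cells. It was detected in 61 of 65 iHECs, with a median of 129 and a highest value of 471 TPM. The iHPCs of days 14, 17 and 21 held it in 15 of 21, 12 of 18 and 17 of 56 cells, with medians of 7.98, 14.1 and 0 TPM and highest values of 34.9, 65.3 and 27.5 TPM. Without the cells against the gate the day-14 count was 13 of 19. Its mean moved by -3.71 from iHECs to day 14, by 0.14 to day 17 and by -1.72 to day 21. The last of these fell short of -2, a fall that 7.76% of the genes compared reached from day 17 to day 21, and the median of all genes moved by -0.74 at that step.

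Fli1 was the ETS member that stayed on most widely. Of 65 iHECs, 61 had it above 1 TPM (93.8%, 85.0 to 98.3%). In iHPCs the counts were 19 of 21 at day 14 (90.5%, 69.6 to 98.8%), 17 of 18 at day 17 (94.4%, 72.7 to 99.9%) and 54 of 56 at day 21 (96.4%, 87.7 to 99.6%). Median levels were 121 TPM in iHECs and between 41.01 and 46.7 TPM in the 3 iHPC groups. The 3 day-14 and day-17 cells listed at 0 for Fli1 were the Pou5f1 and Kdr cells that lacked Ptprc, so without them Fli1 was above 1 TPM in 19 of 19 and 17 of 17 cells. Without the 5 cells against the gate, the mean moved by -0.79 from iHECs to day 14 in place of -1.3. The other 2 Fli1-negative iHPCs, both from day 21, had 36.8 and 18.9 TPM of Ptprc and 25.3 and 147 TPM of Etv6.

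Elk3, a repressor of the ternary complex subfamily, stayed on at a lower level. Cells above 1 TPM numbered 63 of 65 among iHECs and 17 of 21, 16 of 18 and 46 of 56 at days 14, 17 and 21, and its median went from 109 TPM in iHECs to 12.9, 17.1 and 15.6 TPM. Without the cells against the gate the count at day 14 was 17 of 19. The mean moved by -3.12 from iHECs to day 14, or by -2.86 without those cells, and by 0.41 and -0.42 at the later steps. Elk3 overlaps Cdk17 on the other strand, and without strand in the counting the reads of the 2 genes cannot be told apart where they overlap.

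Etv6, a repressor that blood stem cells need, went the other way. Only 34 of 65 iHECs had it above 1 TPM (52.3%, 39.5 to 64.9%). In iHPCs 20 of 21 cells had it at day 14 (95.2%, 76.2 to 99.9%), 17 of 18 at day 17 and 45 of 56 at day 21 (80.4%, 67.6 to 89.8%), and at day 14 the count was 19 of 19 without the cells against the gate. Its median was 1.37 TPM in iHECs and 12.4, 23.2 and 12.8 TPM in the iHPC groups. The mean difference of 1.61 from iHECs to day 14, or 1.81 without the cells against the gate, was short of 2. Of the genes compared, 66.4% had a lower difference.

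**Figure D3:**
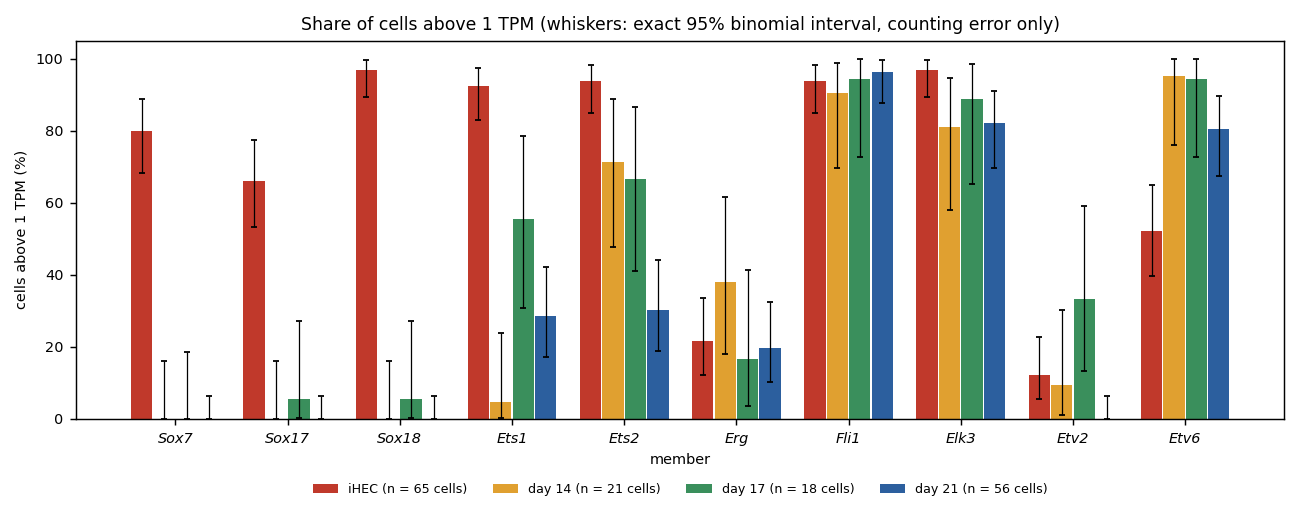
Share of cells above 1 TPM for each of the 10 genes in the 4 groups, with exact 95% intervals that cover counting error only. Sox7, Sox17 and Sox18 drop from 80, 66.2 and 96.9% of iHECs to 0% at day 14, Fli1 stays above 90% in each group, and Etv6 goes from 52.3 to 95.2%.

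RefSeq starts were available here for Ets2, Erg, Elk3, Etv2 and Etv6, and not for the SoxF genes, Ets1 and Fli1. The windows before the starts of 4 of these ETS genes are shown. Elk3 and Ets2 fell together from iHECs to day 14 while Etv6 did not, and Etv2 was seen in few cells. Each sequence is the 250 bases before the RefSeq start on GRCm38.p6, 5′ to 3′ on the strand of the gene, and GGAAG or its reverse complement CTTCC, the ETS core with the base after it, is in capitals. The RefSeq start of Ets2 lies inside the GENCODE span of that gene (given below with its neighbour Erg), so its window is not upstream of the whole gene.
Elk3, chr10:93311160-93311409, minus strand: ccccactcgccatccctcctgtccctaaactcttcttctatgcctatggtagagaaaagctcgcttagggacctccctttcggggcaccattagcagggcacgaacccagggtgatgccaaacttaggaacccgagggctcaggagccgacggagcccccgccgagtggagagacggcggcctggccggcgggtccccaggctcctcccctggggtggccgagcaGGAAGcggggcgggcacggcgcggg
Ets2, chr16:95702157-95702406, plus strand: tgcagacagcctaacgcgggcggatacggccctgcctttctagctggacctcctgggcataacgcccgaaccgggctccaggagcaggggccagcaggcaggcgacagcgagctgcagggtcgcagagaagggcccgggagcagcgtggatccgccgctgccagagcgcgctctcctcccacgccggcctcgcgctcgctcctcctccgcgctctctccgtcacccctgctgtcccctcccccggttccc
Etv6, chr6:134035450-134035699, plus strand: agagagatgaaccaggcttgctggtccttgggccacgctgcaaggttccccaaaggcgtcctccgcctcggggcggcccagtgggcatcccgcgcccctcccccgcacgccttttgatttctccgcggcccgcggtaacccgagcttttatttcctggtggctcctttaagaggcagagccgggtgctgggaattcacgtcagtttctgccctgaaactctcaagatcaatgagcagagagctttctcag
Etv2, chr7:30635853-30636102, minus strand: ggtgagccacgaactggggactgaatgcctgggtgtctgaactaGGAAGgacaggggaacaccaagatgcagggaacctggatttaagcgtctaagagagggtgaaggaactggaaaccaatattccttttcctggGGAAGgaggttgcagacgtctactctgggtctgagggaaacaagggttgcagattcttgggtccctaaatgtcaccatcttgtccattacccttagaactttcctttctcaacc
The GGAAG letters occurred once upstream of Elk3 and at 2 places upstream of Etv2, and not in the windows of Ets2 and Etv6. Of the 32851 RefSeq starts in the table, 64.1% held GGAAG or CTTCC in the same window, so the match describes these letters and nothing more. The longer ETS sequence CCGGAA, in 12% of all windows on either strand, and the SOX core ACAAT, in 27.7%, were in none of the 4. Erg has 3 RefSeq starts and its windows are not shown: 2 of the 3 held the GGAAG or CTTCC letters and 1 held ACAAT or its reverse complement ATTGT.

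Erg and Etv2 were each seen in a minority of cells in every group. Erg was detected in 14 of 65 iHECs (21.5%, 12.3 to 33.5%) and, at days 14, 17 and 21, in 8 of 21 (38.1%, 18.1 to 61.6%), 3 of 18 (16.7%, 3.58 to 41.4%) and 11 of 56 iHPCs (19.6%, 10.2 to 32.4%). Its highest value was 106 TPM in iHECs and 38.3 TPM in iHPCs, and the intervals of all 4 groups overlapped. Etv2 was above 1 TPM in 8 of 65 iHECs (12.3%, 5.47 to 22.8%) with a highest value of 336 TPM. In iHPCs it was detected in 2 of 21 cells at day 14, in 6 of 18 at day 17 and in 0 of 56 at day 21.

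Part of the Etv2 signal in iHPCs came from cells that went against the gate. Both day-14 cells with Etv2, at 17.3 and 7.09 TPM, were the Pou5f1 cells, which leaves 0 of 19 cells without them. At day 17 the highest value, 76.1 TPM, was in a cell that had 50.6 TPM of Ptprc together with 51.4 TPM of Kdr and 5.03 TPM of Pdgfra. The Kdr cell without Ptprc had 7.65 TPM, and the other 4 positive day-17 cells had between 1.13 and 3.95 TPM of Etv2. Kdr was above 1 TPM in only these 2 of the 18 day-17 cells, and both had Etv2.

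The order of the 10 genes by mean level changed between endothelium and blood. In iHECs the order was Sox18 (7.23 ± 2.41), Elk3 (6.54 ± 1.77), Ets1 (6.46 ± 2.34), Ets2 (6.37 ± 2.07), Fli1 (6.33 ± 2.15), Sox7 (5.0 ± 3.04), Sox17 (4.38 ± 3.38), Etv6 (2.04 ± 2.18), Erg (0.97 ± 1.95) and Etv2 (0.72 ± 1.96), each as mean ± SD of log2(TPM + 1) over 65 cells. No neighbours in that order differed by more than the larger of their SDs between cells. In each iHPC group Fli1 stood first, at 5.04 ± 1.74, 5.19 ± 1.63 and 5.09 ± 1.68, and Etv6 and Elk3 took the next places. The gap of 2.19 at day 21 between Etv6 (3.27 ± 1.83) and Ets2 (1.08 ± 1.70) was the only one between neighbours with detected values that exceeded the larger SD.

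Cell by cell, the highest ETS member was spread over several genes in iHECs and was mostly Fli1 in blood cells. Over the cells that fitted their gate, the highest ETS member was Ets1 in 20 of 64 iHECs, Fli1 in 17, Ets2 in 14, Elk3 in 12 and Etv2 in 1. Among iHPCs it was Fli1 in 16 of 19, 12 of 17 and 41 of 55 cells at the 3 days in turn. The mean number of the 7 ETS members above 1 TPM per cell was 4.63 ± 0.86 in iHECs and 3.90 ± 0.94, 4.50 ± 1.04 and 3.38 ± 1.17 in iHPCs of days 14, 17 and 21. The group with the most ETS members per cell, iHECs, was also the one with the fewest genes detected.

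Most iHECs carried the SoxF genes together. All 3 were above 1 TPM in 36 of 65 iHECs (55.4%), Sox7 with Sox18 in 15, Sox17 with Sox18 in 6, Sox18 alone in 6, Sox7 with Sox17 in 1 and none in 1. The mean was 2.43 ± 0.73 SoxF genes per iHEC. The cell without any had 3309 genes above 1 TPM, the fewest of all iHECs, and still held 145 TPM of Cdh5. Sox7 or Sox17 on its own, without Sox18, was seen in no iHEC.

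The ETS genes Ets1, Ets2, Fli1 and Elk3 were all above 1 TPM in 51 of 65 iHECs (78.5%). In day-14 iHPCs the most frequent set was Ets2, Fli1 and Elk3 without Ets1, in 12 of 21 cells. At day 17 that set was found in 6 of 18 cells and the full set of 4 in 5. At day 21 Fli1 and Elk3 without Ets1 and Ets2 led, in 23 of 56 cells, and the full set was seen in 6. Ets1 was thus missing from the leading set at day 14, and both Ets1 and Ets2 from that of day 21.

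Relations in level between members were weak for most pairs among iHECs. Over 65 iHECs the Spearman correlation of the 45 pairs had a median of 0.07 and ran from -0.15 to 0.43, and these values are descriptions, since all cells come from 1 sample and share the number of genes detected. The highest was between Sox18 and Elk3, at 0.43, and it was 0.44 partial on the number of genes above 1 TPM and 0.64 in the 48 iHECs with at least 4000 such genes. Sox7 and Elk3 had 0.36, and Sox17 and Fli1 0.34. The 3 SoxF pairs lay between 0.21 and 0.24, and Sox17 with Sox18 went to 0.06 in the 48 cells. Etv6 was above 1 TPM in 34 of 65 iHECs. Its correlations were below 0 with Sox7 (-0.12), Fli1 (-0.07), Sox17 (-0.03) and Ets1 (-0.03), and above 0 with Elk3 (0.11), Sox18 (0.07) and Ets2 (0.06). Without the less often detected Erg, Etv2 and Etv6, a choice that takes out these negative pairs, 21 pairs remained, all above 0 with a median of 0.20. All 21 were also above 0 partial on the number of genes detected (median 0.20) and in the 48 cells (median 0.18). By Pearson correlation 19 of the 21 were above 0. Fli1 and Erg, close relatives, had -0.06. Levels of single members had correlations between -0.16 and 0.26 with the number of genes detected.

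**Figure D4:**
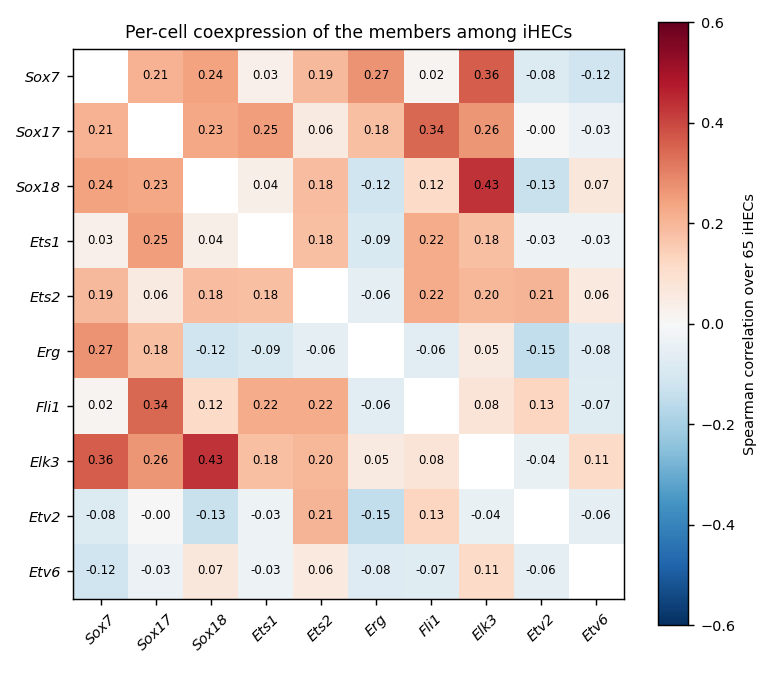
Spearman correlation of log2(TPM + 1) between each pair of the 10 genes over 65 iHECs. The darkest cell is Sox18 with Elk3 at 0.43. The 21 pairs without Erg, Etv2 and Etv6 are all above 0, with a median of 0.20, while Etv6 is below 0 with Sox7, Sox17, Ets1 and Fli1.

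Erg and Etv2 were not seen in the same iHEC. Erg was above 1 TPM in 14 iHECs and Etv2 in 8, and 0 cells had both. All 14 Erg cells also had Fli1, Elk3 and Sox18, as did 47, 49 and 49 of the 51 iHECs without Erg. Of the 14, 13 had Sox7 and 13 had Sox17, against 39 of 51 and 30 of 51 iHECs without Erg. Erg, Sox7 and Sox17 had correlations of 0.26, 0.23 and 0.22 with the number of genes detected, and the part of detection here was not tested. All 8 Etv2 cells had Ets1, Ets2, Fli1 and Sox18, and 4 of the 8 had Sox17. With only 8 and 14 cells, few with both are expected even without a relation, so the 0 does not show a separation.

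At day 21, where mast cell and T lymphoid markers were both present, ETS members split with these markers. Ets1 was above 1 TPM in 14 of 30 cells with Cd3g, a chain of the T cell receptor complex, and in 2 of 26 without it. It was above 1 TPM in 13 of 28 cells with Tcf7, a factor of early T cells, and in 3 of 28 without. Of the 19 cells with Ms4a2, a chain of the mast cell IgE receptor, 0 had Ets1, against 16 of the other 37. Its Spearman correlation was above 0 with all 6 T lymphoid markers that were on and off in at least 5 cells each (0.08 to 0.52), and below 0 with the mast cell markers Gata2 and Ms4a2 (-0.30 each). Of the other mast cell markers, Cpa3, Mcpt4 and Cma1 were above 1 TPM in 53 to 56 of the 56 cells and Fcer1a in 2, too unevenly to split them. The T lymphoid markers did not all split the cells alike, since Ets1 was in 2 of 8 cells with Cd3d and 14 of 48 without. Ets1 also went with Ly6c2, from the neutrophil and monocyte list, and was in 7 of 10 cells with it and 9 of 46 without (0.39).

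Erg and Fli1 went the opposite way at day 21. Erg was above 1 TPM in 10 of 34 cells with Gata2, a factor of stem and mast cells, and in 1 of 22 without, and in 6 of 19 cells with Ms4a2 and 5 of 37 without. Erg was in 4 of the 34 cells with Tcf7 or Cd3g, and in 0 of the 14 cells with Rag1, a recombinase of lymphoid cells. Day-21 cells 2, 5 and 28 had Erg and Cd3g above 1 TPM and Ms4a2 at 0. Gata2 was low in these cells, at 1.82, 1.22 and 1.85 on the log2(TPM + 1) scale. The Gata2 count is therefore not a count of mast cells. Fli1 was on in nearly all cells, so its level was compared: 5.88 ± 1.3 in cells with Ms4a2 against 4.69 ± 1.73 without, and 4.62 ± 1.73 in cells with Cd3g against 5.63 ± 1.48 without. The correlations of Fli1 were below 0 with all 6 T lymphoid markers (-0.43 to -0.13) and above 0 with Gata2 and Ms4a2 (0.41 and 0.38). The cells with Erg had a median of 7469 genes above 1 TPM and those without 6600, and the part of detection in the Erg split was not tested.

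**Figure D5:**
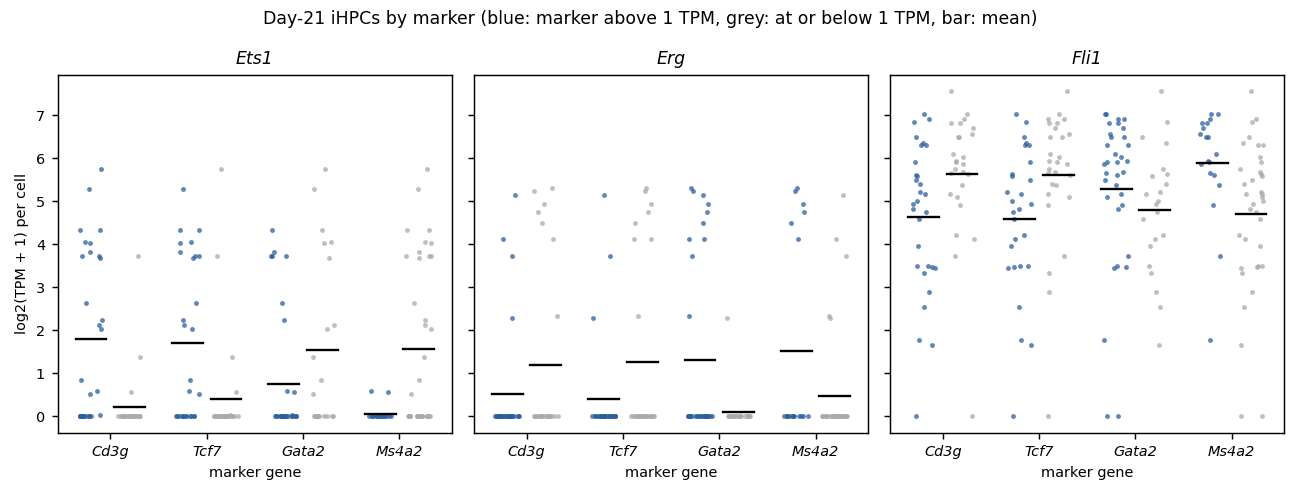
Ets1, Erg and Fli1 in 56 day-21 iHPCs, as log2(TPM + 1), with cells split by whether a T lymphoid marker (Cd3g, Tcf7) or a mast cell marker (Gata2, Ms4a2) was above 1 TPM (blue) or not (grey). Points are cells and bars means; Ets1 is above 1 TPM in 0 of 19 cells with Ms4a2, and the Fli1 mean is 5.88 with Ms4a2 and 4.69 without.

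At day 17, before Cd3g was seen in more than 1 of the 18 cells, Ets1 was above 1 TPM in 9 of 13 cells with Tcf7 and in 1 of 5 without. The summed T lymphoid markers overlapped widely between day-17 cells with Ets1 (71.9 to 938 TPM) and without (0 to 587 TPM). Pdgfrb was above 1 TPM in 16 of 18 day-17 cells and the other 6 feeder markers in at most 2, and the summed feeder markers were 25.8 to 87.0 TPM with Ets1 and 0 to 116 TPM without. Neutrophil and monocyte markers were high in few day-17 cells and reached 29.4 TPM in those with Ets1 and 7508 TPM in those without. The part of these cell types in the Ets1 values was not tested.

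The rest of the ETS and Sox families were compared from lists of family members. Of 19 other ETS genes, 11 passed the filter on low values. From iHECs to day 14, 2 of the 11 rose by at least 2, namely Sfpi1 (6.29), which encodes the myeloid and lymphoid factor PU.1, and Etv5 (2.72), and 0 fell that far, where 25.7% of all genes compared rose and 5.63% fell that far, so neither count stands out from the background. Elf1 and Elf2 were above 1 TPM in at least 50% of cells of every group, with differences of 1.36 and -0.59. Of 16 other Sox genes only Sox4 passed the filter, and its mean moved by 1.1, 1.87 and -1.94 over the 3 steps.

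Among 16 factors known to act with SoxF and ETS proteins, 10 passed the filter and 2 fell by at least 2 from iHECs to day 14 (5.63% of all genes compared did), namely Klf2 (-4.19), a flow-responsive endothelial factor, and Epas1 (-3.23), a hypoxia factor. Gata2 moved by -1.13, Lmo2 by 1.64, Lyl1 by 1.52 and Runx1, the induced factor itself, by 1.18. Endothelial genes fell with the SoxF genes: 17 of the 19 that passed the filter fell by at least 2, against the same 5.63% of all genes, led by Ecscr (-8.59), Cldn5 (-7.24) and Kdr (-5.83). These genes were listed as endothelial, and some, such as Cdh5, passed the filter through iHECs alone, so the count is a description. Pecam1, Egfl7 and Icam2 also fell (-3.73, -2.17 and -2.90) but stayed above 1 TPM in at least 50% of cells of every group, as Fli1 and Elk3 did. Here fell and rose mean a difference of at least 2, with no test.

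Over all 160 cells, the genes most like the SoxF mean by Spearman correlation were Timp3 (0.92), Cdh5 (0.91), Gpihbp1 (0.91), Eltd1 (0.91) and Rhoj (0.91), genes detected in at least 62 of 65 iHECs and, like the SoxF genes, in few iHPCs. Within the 65 iHECs they were Rock2 (0.58), Trp53i11 (0.57), Pde2a (0.55), Fbxl4 (0.54) and Odc1 (0.53), where 99% of the genes ranked lay below 0.40. For Fli1 the closest genes within iHECs were Pde2a (0.58), Ece1 (0.52), Tiprl (0.46), Pecam1 (0.46) and Rnmtl1 (0.44). For Ets1 they were Map1lc3b (0.57), Nras (0.53), Ywhah (0.51), Otub1 (0.48) and Cd38 (0.47). Pde2a was on both the SoxF and the Fli1 list.

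Members that lie next to each other in the genome moved by unlike amounts. On GRCm38, Fli1 (chr9:32422204-32542861, minus strand) and Ets1 (chr9:32636221-32757820, plus strand) lie 93.4 kb apart, and Erg (chr16:95359169-95586593, minus strand) and Ets2 (chr16:95702075-95721051, plus strand) 115 kb apart, with 0 protein-coding genes between either pair. From iHECs to day 14 the mean of Fli1 moved by -1.3 and that of Ets1 by -6.28, and the mean of Erg moved by 0.16 and that of Ets2 by -3.71. The SoxF genes lie on separate chromosomes, Sox7 at chr14:63943673-63950732, Sox17 at chr1:4490931-4497354 and Sox18 at chr2:181669836-181671640.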

How the data were processed

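The study measured single cells amplified with a whole-transcriptome kit. The authors aligned reads to mm10 and computed TPM per gene and cell, and the submitters' processing notes name HISAT2 2.1.0, SAMtools 0.1.19 and StringTie 1.3.4. The deposited TPM table holds 23420 genes in 160 cells, summing to between 988686 and 999108 per cell, with 0 pairs of cells identical in every gene. Near copies were not searched for. Among the 10 genes, iHECs 5 and 6 had similar values (Sox17 206 and 201 TPM, Fli1 316 and 293 TPM). So did iHECs 24 and 25 (Erg 45.2 and 42.6 TPM, Fli1 118 and 112 TPM). Less close were iHECs 32 and 33 (Ets1 140 and 134 TPM, Ets2 354 and 363 TPM), and there may be other such pairs. Whether such pairs are separate cells was not tested, and each cell of a pair was counted as 1 cell in the counts and correlations over iHECs. The sequencer is named differently in the labels than in the methods. Groups came from the sample titles. Shares above 1 TPM, log2(TPM + 1) means, differences between consecutive groups, combinations and Spearman correlations were computed with Python 3.11.15, pandas 2.3.3, numpy 2.4.6 and scipy 1.17.1. The pseudocount was 1, a difference of 2 served as the threshold, and code was tested on simulated data. Shares across genes used the study's own filter, which kept 9674 genes (above 1 TPM, more than 30 cells). From each list, up to 3 largest rises and falls from iHECs to day 14 and the genes in at least 50% of cells of every group were named. The 10 genes and the lists were chosen with earlier results of these data known. Positions came from GENCODE M21 (GRCm38, the same assembly as mm10) and upstream sequences from RefSeq. TPM keeps no depth, so intervals cover counts of cells only. No comparison was tested, because each group is 1 sample.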

Additional observations from a re-analysis of the deposited data

How the results depend on the processing

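No paired analysis was possible because the results come from no test and the numbers shared across groups name cells, not animals or cultures. Of the 114 values for groups of genes under other settings, 93 stayed within their spread or within 1.5 times their count and 21 moved. The SoxF mean difference from iHECs to day 14 (-5.53) was -8.28 with a pseudocount of 0.1 and -3.04 with 10. Relative to the median difference, the ETS mean from iHECs to day 14 (-1.86) was -2.79, and the SoxF and ETS means from day 17 to 21 (-0.09 and -0.68) were 0.64 and 0.061, a change of sign in 2 differences that were below 1 in size. With a threshold of 1 in place of 2, members higher were 1 at the step to day 14 and 1 at the step to day 17, and members lower were 2 from day 17 to 21, where 48% and 15.5% of all genes compared were higher and 38.5% lower. Other ETS genes were then 6 higher to day 14, 1 higher and 1 lower to day 17, and 3 lower to day 21, and other Sox genes 1 higher, 1 higher and 1 lower at the 3 steps. A pseudocount of 0.1 gave 1 member higher at each of the first steps and 1 lower at the last, and relative to the median 1 other ETS gene was higher at day 14. Counting above 10 TPM, ETS members per cell were 2.76 at day 14 and 3.33 at day 17. Leaving out the 5 cells against the CD45 gate, an alternative added after the data were seen, moved none of 30 such values and 5 of 76 for single genes or pairs, all of them shares at day 14 or 17 (Fli1, Etv2 and Etv6 at day 14, Sox18 and Fli1 at day 17). Under the other settings, of 288 values for single genes or pairs 32 moved, mostly shares counted above 0 or 10 TPM. What limits all of this is that each group is 1 sample of 18 to 65 cells, that the depth of a cell is unknown, and that iHECs with few detected genes may miss a transcript.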

Other observations

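Several Sox genes outside the SoxF group were seen in part of the cells, named here after their values were seen. Sox11 was above 1 TPM in 16 of 65 iHECs, with a highest value of 107 TPM, and in 1 of 21, 2 of 18 and 0 of 56 iHPCs at days 14, 17 and 21. Sox3 was above 1 TPM in 0 iHECs, 3 of 21 day-14 cells and 3 of 18 day-17 cells, with a highest value of 72.8 TPM. Sox2 was above 1 TPM in 2 of the 160 cells, the day-14 cells with Pou5f1 and without Ptprc, at 9.08 and 38.2 TPM.

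The iHEC with Ptprc (53.9 TPM) held 3 of the 5 blood markers and 5 of the 7 endothelial markers. Its SoxF and ETS values were 42.4 TPM of Sox7, 0 of Sox17, 5.39 of Sox18, 44.3 of Ets1, 134 of Ets2, 21.4 of Fli1 and 1.03 of Elk3, with Erg, Etv2 and Etv6 listed at 0. It also held 851 TPM of Sfpi1, which encodes PU.1, and 0 of Kit. Both SoxF and blood transcripts were thus found in that 1 cell, but blood transcripts were not particular to it. Laptm5, Coro1a and Sfpi1 were above 1 TPM in 39, 14 and 23 of the 65 iHECs. The iHECs without Ptprc held up to 4 of the 5 blood markers.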
